A study of Bos taurus with 96 samples.

Results

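The genes described here carry vitamin A and turn it into retinoic acid, or remove the acid again, and they were followed over 5 bovine fat depots, over muscle under either post-weaning diet, and over 3 breeds. The set names 8 genes, STRA6, RBP4, CRABP2, ALDH1A1, DHRS3, RDH10, RARB and CYP26B1, and members were found by the RefSeq accession of each probe or, failing that, by the gene name in the study's probe tables. Of the 8, 7 have at least 1 probe, 16 probes in all, against 10680 genes that can be named on the array. RARB, the retinoic acid receptor beta, was matched by neither route and is not analysed here.

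Tissue came from steers of Angus, Hereford and Wagyu x Angus breeding, about 26 months old by the series text, after 259 days in a feedlot by the labels. Each of the 96 arrays holds RNA from 1 dissected sample on a single-colour Agilent bovine array. Subcutaneous fat over the rump (SC), intramuscular fat dissected out of the M. longissimus dorsi (IMF), omental fat (Omen), fat around the kidney (Kid) and fat between muscles (Inter) have 12 arrays each, 4 per breed, and their steers were on pasture after weaning. Longissimus dorsi muscle with its marbling fat in place (LD) has 24 arrays from steers on pasture, 8 per breed, and 12 from steers given supplement in the same period, 4 per breed. According to the study's methods the depots were taken from a shared set of steers, and part of the LD samples from an earlier slaughter of both supplemented and pasture-fed animals. The labels name neither the steer nor the slaughter. Arrays of different depots can therefore share an animal, and diet and slaughter cannot be fully told apart. The age and feedlot time given above may not hold for the LD samples of the earlier slaughter. Comparisons of LD with fat may thus also hold a difference in age. P-values here measure the spread between these arrays.

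Retinol leaves the liver bound to RBP4, which adipocytes also secrete, and STRA6 is the membrane receptor that takes retinol up from RBP4. Inside the cell RDH10 oxidises retinol to retinal and DHRS3 reduces retinal back to retinol, so the pair set how much retinal there is. ALDH1A1 oxidises retinal to retinoic acid, CRABP2 hands the acid to its receptors in the nucleus, and CYP26B1 breaks it down. Adipose tissue is a store of retinoids, and retinoic acid is known to act on fat cell differentiation.

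Levels are log2 processed signals with the 75th percentile of the same array set to 0, so that a difference of 1 is a doubling of signal. Levels of different probes are not compared, because probes bind unequally. Between 66.2% and 96.04% of probes stood well above background on an array, with group medians from 74.0% in LD on pasture to 83.7% in Omen. The 75th percentile itself was lower in SC (median 9.05 on the log2 scale) and in LD with supplement (8.58) than in IMF (9.82), Kid (10.1) or Inter (10.2), so a signal near background sits at a higher scaled level on SC and supplement arrays. IMF arrays carried muscle RNA, and so did some Inter arrays. The summed level of 12 myofibre genes, as multiples of the 75th percentile, ran from 1074 to 3142 in IMF, from 1.36 to 2.43 in SC and from 4214 to 6029 in LD on pasture. In Inter its median was 2.18, with single arrays at 875 and 82.2. Values in LD are given beside IMF for most members. All 12 IMF arrays were scanned on 1 day, all 12 Inter arrays on another, and 11 of the 12 SC arrays on yet another, so depot and scan day largely coincide.

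Most probes differed between depots, which sets the scale for the members. Benjamini-Hochberg adjustment over 34227 probes with limma left 64.2% past 0.05 for IMF minus SC, 48.8% for Inter minus SC, 41.7% for Kid minus SC and 45.7% for Omen minus SC. With 1 representative probe per gene, 4 of 7 members passed for IMF, 3 for Inter, 3 for Kid and 5 for Omen. For IMF, Inter and Kid these shares lie near the background. The Omen count fell to 3 with scan day in the fit and to 3 with the slide as a random block. The median difference of the 7 members was −0.15, −0.26, −0.35 and −0.42 in the same order, where the median over all probes lay between −0.05 and 0.00. The 4 comparisons share the SC arrays. The F test over all 5 depots passed for 6 of 7 members, the exception being CYP26B1, with 87.2% of all probes past it.

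**Figure D1:**
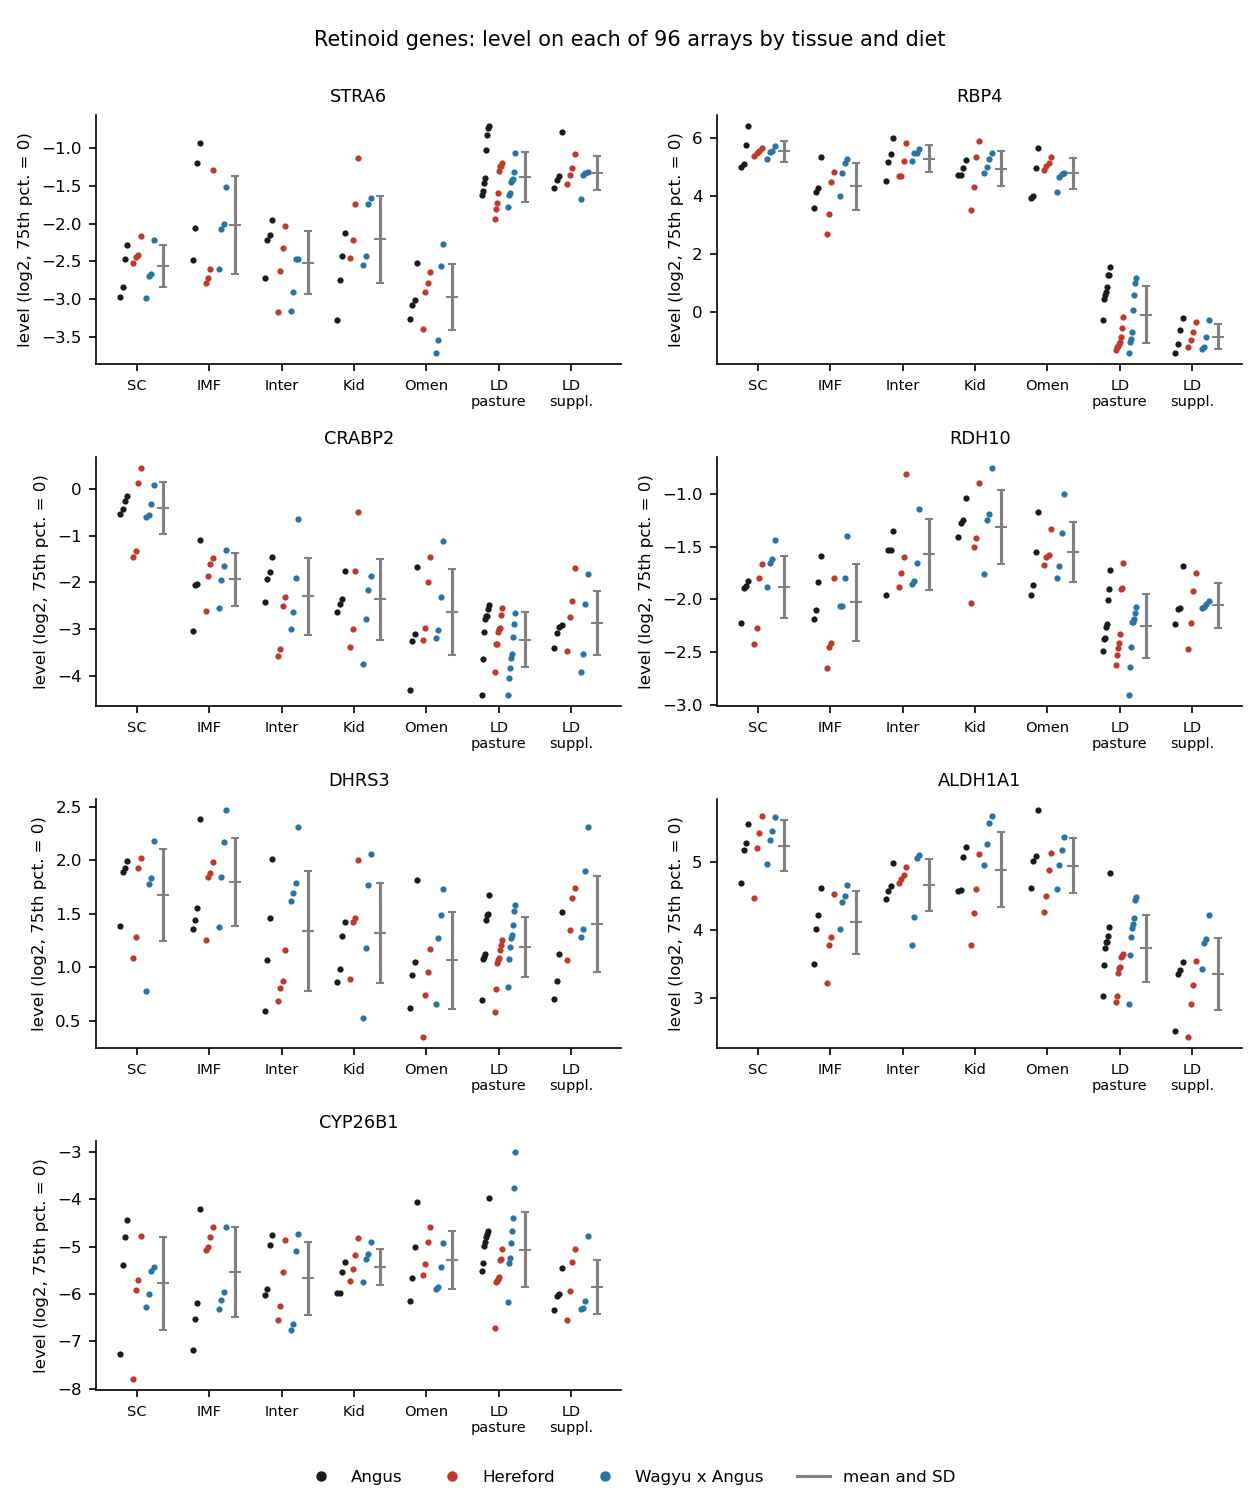
Level of the representative probe of each of the 7 measured genes (y axis, log2, 75th percentile of the array = 0) on each array, by tissue and diet (x axis), with breed as colour and the mean and SD of each group as grey bars. CRABP2 is highest in SC, RBP4 and ALDH1A1 fall from fat to muscle, and the CYP26B1 probe is low in all groups, from −7.79 to −3.00.

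CRABP2, the carrier that brings retinoic acid to its nuclear receptors, was lower in each of the other 4 depots than in SC. Its level in SC ran from −1.45 to 0.44 with a median of −0.38. IMF ran from −3.05 to −1.09 (median −1.91) and Inter from −3.58 to −0.65 (−2.36). Kid ran from −3.74 to −0.50 (−2.40) and Omen from −4.31 to −1.12 (−2.99). Between 10 and 11 of the 12 arrays of each of these depots lay below the lowest SC array, though the ranges overlapped. The log2 difference from SC was −1.52 ± 0.22 (SE, 12 arrays against 12) for IMF (adjusted p = 1.87e-06 by limma), a fold of 2.87. Omen gave −2.22 ± 0.30 (2.16e-06), Kid −1.95 ± 0.28 (6.88e-06) and Inter −1.88 ± 0.28 (6.29e-06). In LD on pasture CRABP2 was lower still, from −4.40 to −2.49 with a median of −3.05, and no LD array reached the SC range.

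Among IMF, Inter, Kid and Omen the order of CRABP2 was less clear. IMF stood 0.70 ± 0.30 above Omen (adjusted p = 0.0499), close to the threshold, and no other pair of these depots passed. SC was the highest in all 3 breeds, with means of −0.34 (Angus), −0.55 (Hereford) and −0.35 (Wagyu x Angus), against −2.06, −1.89 and −1.86 in IMF. The probe was named from the study's tables. A further probe matched by accession, which is not among those tested, lay near background outside SC. It was well above background on 12 of 12 SC arrays, 10 each of IMF and Inter, and 7 each of Kid and Omen, and fell by 1.64, 1.69, 2.32 and 2.37 from SC in the 4 depots. Of 9 fibroblast markers 7 were lower and 2 higher in IMF, 2 lower and 2 higher in Inter, 5 lower in Kid and 8 lower in Omen. In Inter COL1A1 (−1.49 ± 0.27) and COL3A1 (−0.84 ± 0.12) were the lower ones. In IMF 8 of 9 adipocyte markers were lower as well. The gene most like CRABP2 over the 60 fat arrays was the collagen gene COL1A1 (r = 0.80), followed by PRDX4 (r = 0.79). The part of fibroblast content in the CRABP2 differences was not tested. In whole tissue, fewer cells of a type and less RNA per cell cannot be told apart.

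RBP4, the carrier of retinol in blood, was lower in IMF, Kid and Omen than in SC, and far lower in muscle. SC ran from 5.003 to 6.41 (median 5.52), Inter from 4.52 to 6.01 (5.33), Kid from 3.51 to 5.88 (4.97), Omen from 3.94 to 5.65 (4.85) and IMF from 2.68 to 5.34 (4.36). LD on pasture ran from −1.40 to 1.55 with a median of −0.23, below all fat arrays. The order of the means was SC, Inter, Kid, Omen, IMF, LD, but most neighbours were not separated. SC and Inter did not differ beyond their spread (−0.26 ± 0.16, adjusted p = 0.201 by limma). Kid minus Inter (0.277), Omen minus Inter (0.0871) and Omen minus Kid (0.685) did not pass. Nor did IMF minus Kid (0.069) or IMF minus Omen (0.157), while IMF minus Inter did (−0.95 ± 0.26, 0.00282). With scan day in the fit IMF minus Kid (−1.34), Omen minus Inter (−0.99) and Omen minus Kid (−0.795) passed as well. RBP4 fell by 1.21 ± 0.25 on the log2 scale in IMF (adjusted p = 0.000155), by 0.60 ± 0.20 in Kid (0.0165) and by 0.76 ± 0.18 in Omen (0.0012). Between LD on pasture and SC it fell by 5.62 ± 0.29, a fold of 49.2.

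A second RBP4 probe also had SC and Inter highest and IMF lowest among the fat depots, with Kid and Omen nearly level, and gave differences from SC of −1.93 ± 0.28 in IMF, −0.86 ± 0.26 in Kid and −0.84 ± 0.21 in Omen, all past the threshold, and −0.14 ± 0.21 in Inter, which was not. Fat cell genes moved beside it most clearly in IMF. Of 9 adipocyte markers 8 fell in IMF, with a median difference of −1.24. In Kid 2 fell, with a median of 0.24, and in Omen 2 fell and 1 rose (−0.20). In Inter, where RBP4 did not pass, 2 fell and 1 rose as well (0.03). The summed adipocyte level ran from 201 to 684 in IMF, from 462 to 893 in Kid and from 680 to 1050 in SC. Kid arrays also spread in summed macrophage level, from 9.65 to 132 against 11.7 to 37.0 in SC. How much of the RBP4 difference goes with adipocyte or macrophage content was not tested. Over the fat arrays the genes most like RBP4 were ORMDL3 and COX19 (r = 0.88 for both).

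ALDH1A1, which makes retinoic acid from retinal, was also lower in IMF than in SC. SC ran from 4.48 to 5.68 (median 5.31) and IMF from 3.22 to 4.67 (4.13), with 8 of 12 IMF arrays below the lowest SC array. The difference was −1.13 ± 0.17 (adjusted p = 2.42e-06), a fold of 2.19, and 2 further probes gave −1.36 ± 0.16 and −1.40 ± 0.14 with no overlap between the IMF and SC ranges. Markers of several cell types moved between IMF and SC as well. Of 6 macrophage markers 6 were lower (median −1.90), of 7 endothelial markers 4 were lower and of 5 smooth muscle markers 5 were higher (median 3.33). Their part in the ALDH1A1 difference was not tested. LD on pasture ran lower than IMF, from 2.91 to 4.85 (median 3.69), 1.52 ± 0.16 below SC. In Inter the gene fell by 0.58 ± 0.15 (adjusted p = 0.00269), and 1 of its 3 probes did not pass there. In Kid (−0.35 ± 0.19) and Omen (−0.30 ± 0.16) the representative probe did not pass, and 1 of the 2 further probes passed in Omen (−0.39 ± 0.16, adjusted p = 0.0473). MTURN (r = 0.87) and PDP2 (r = 0.84) were the genes most like ALDH1A1.

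**Figure D2:**
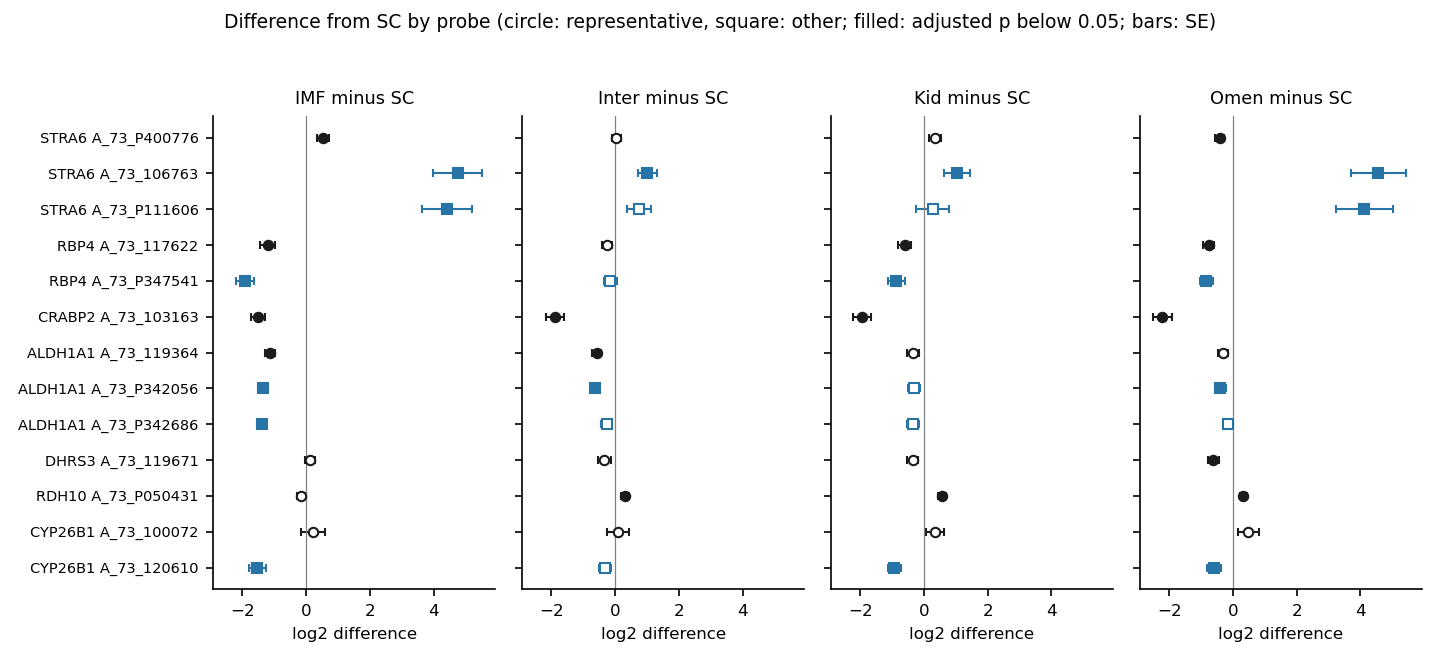
Log2 difference of each fat depot from SC (x axis) for the 13 tested probes of the 7 genes (rows), with SE bars, circles for representative and squares for other probes, filled where the adjusted p is below 0.05. CRABP2 lies left of 0 in all 4 depots, and the STRA6 probes disagree with each other in Omen, as the CYP26B1 probes do in IMF.

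RDH10 and DHRS3, the opposed pair that make and remove retinal, moved less than CRABP2 against SC, and in the fits that kept all breeds and scan days RDH10 was higher in Kid and DHRS3 lower in Omen. RDH10 ran from −2.43 to −1.44 in SC (median −1.85) and from −2.04 to −0.75 in Kid (−1.26), and 9 of 12 Kid arrays exceeded the highest SC array. The rise in Kid was 0.57 ± 0.13 (adjusted p = 0.00125), or 1.48-fold. Rises of 0.31 ± 0.13 in Inter (adjusted p = 0.0485) and 0.33 ± 0.12 in Omen (0.0227) were smaller, and neither passed under normexp (0.07 and 0.09, adjusted p = 0.575 and 0.438), which left 0.31 in Kid (0.0142). The Inter call was lost when any of 15 of the 24 arrays was left out, with adjusted p up to 0.0884, and with scan day in the fit, which left 0.08 in Inter and 0.11 in Omen. RDH10 in IMF did not pass against SC (−0.15 ± 0.13, adjusted p = 0.338), though it passed with scan day in the fit (−0.37, 0.0473) and under normexp (−0.25, 0.0344). It was lower in IMF than in Inter, Kid and Omen, by 0.46 ± 0.14, 0.72 ± 0.15 and 0.48 ± 0.13. LD on pasture ran from −2.91 to −1.66 (median −2.25). ABHD6 (r = 0.74) and PRKAR2B (r = 0.73) were most like it.

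DHRS3 ran from 1.25 to 2.47 in IMF (median 1.84) and from 0.78 to 2.18 in SC (median 1.87), and it was lowest of the fat depots in Omen, from 0.35 to 1.82 (median 1.0). IMF and SC did not differ beyond their spread (0.12 ± 0.17, adjusted p = 0.535). Omen lay 0.61 ± 0.18 below SC (adjusted p = 0.00627), while Inter (−0.34 ± 0.20) and Kid (−0.35 ± 0.18) did not pass. Against IMF all 3 of Inter, Kid and Omen were lower, by 0.46 ± 0.19, 0.48 ± 0.18 and 0.73 ± 0.17. LD on pasture, at a median of 1.17, was 0.61 ± 0.12 below IMF. The genes most like DHRS3 were PXMP2 (r = 0.73) and MTHFD1 (r = 0.72).

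STRA6, the retinol uptake receptor, has 5 probes, and they disagree. The representative probe, A_73_P400776, is the one with the highest mean signal and was chosen for that. SC ran from −2.99 to −2.16 (median −2.50), IMF from −2.79 to −0.93 (−2.06), Omen from −3.71 to −2.27 (−2.96) and LD on pasture from −1.93 to −0.70 (−1.42). It rose by 0.53 ± 0.20 in IMF (adjusted p = 0.0205), a call lost under quantile normalization (0.45, adjusted p = 0.0647) and normexp (0.24, 0.175). It fell by 0.42 ± 0.15 in Omen (0.0224), and it was higher in LD on pasture than in IMF by 0.65 ± 0.16. In Inter (0.04 ± 0.14) and Kid (0.35 ± 0.18) it did not pass. Over the fat arrays INSM2 (r = 0.90) and CTRB2 (r = 0.87) were most like it.

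Of the other 4 probes, 3 shared a pattern of their own. By A_73_106763 STRA6 lay from −7.90 to −5.95 in SC (median −6.67), where 2 of 12 arrays stood well above background, and from −5.66 to 1.13 in IMF (median −1.66), where all 12 did and none overlapped SC. Omen ran from −6.15 to 2.31 (median −3.37) on 11 arrays, the last one lacking a value because its spot was marked an outlier. IMF exceeded SC by 4.76 ± 0.78 (adjusted p = 9.91e-06) and Omen exceeded SC by 4.56 ± 0.86 (0.000158). Because most SC spots lay near background these sizes are not settled, and under the normexp correction they were 1.96 (adjusted p = 0.00209) and 1.83 (0.011). A_73_P111606, with 3 of 12 SC arrays well above background, gave 4.42 ± 0.79 and 4.12 ± 0.89. A_73_P277371, which is not among the tested probes, was well above background on no SC array, on 8 in IMF and on 9 in Omen, and its signal was at least 2.54-fold higher in IMF and at least 1.93-fold higher in Omen than in SC. The remaining probe, A_73_P343436, was well above background on 3 of the 96 arrays.

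**Figure D3:**
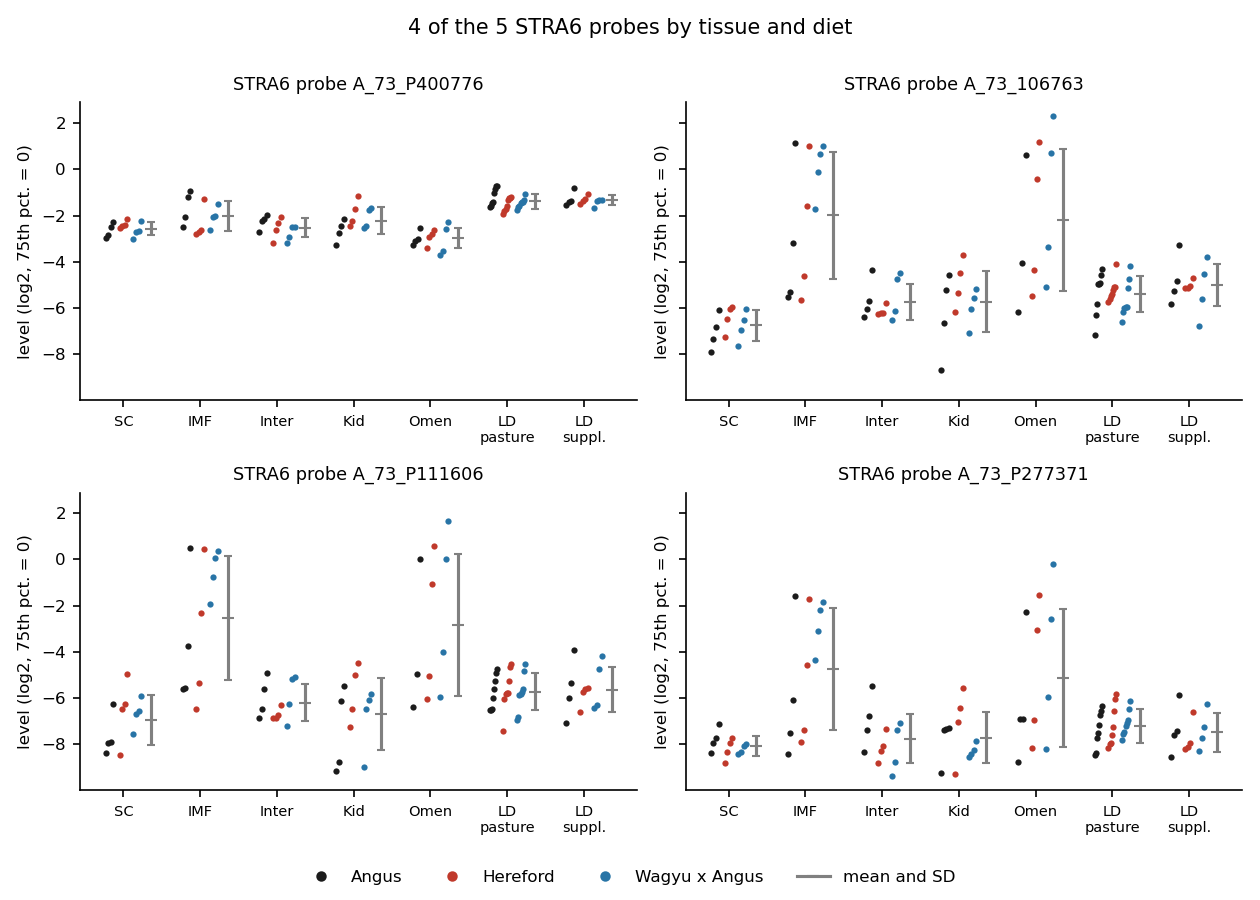
Level of 4 STRA6 probes (y axis, log2, 75th percentile of the array = 0) on each array by tissue and diet (x axis), with breed as colour and the mean and SD as grey bars. A_73_P400776 stays between −3.71 and −0.70, while A_73_106763 runs from −5.66 to 1.13 within IMF and from −6.15 to 2.31 within Omen.

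In Inter and Kid the A_73_106763 signal was low. It ran from −6.51 to −4.33 and from −8.66 to −3.70, and the differences from SC of 1.02 ± 0.28 and 1.03 ± 0.41 turned to −0.56 and −0.41 with the background corrected by normexp, both past the threshold with that sign, so no direction is given for these depots. LD on pasture ran from −7.17 to −4.10 (median −5.31), with 13 of 24 arrays well above background. IMF stood 3.396 ± 0.58 above it (adjusted p = 2.13e-06), or 1.65 under normexp, and 8 of 12 IMF arrays exceeded the highest LD array.

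By A_73_106763 STRA6 also varied widely among the arrays of IMF and of Omen. On the 4 Angus IMF arrays STRA6 was −5.53, −5.30, −3.18 and 1.13. On the Hereford arrays it was −5.66, −4.61, −1.60 and 1.0. The Wagyu x Angus arrays lay higher and closer together, at −1.72, −0.11, 0.68 and 1.01. PMP2, a peripheral nerve gene taken up here after its values were seen, was −6.06, −3.33, −2.66 and 3.00 on the Angus arrays in the same order, −4.07, −1.98, −0.79 and 3.44 on the Hereford and 0.70, 2.23, 3.38 and 3.12 on the Wagyu x Angus arrays, so it was high where STRA6 was. MSLN, which marks mesothelium, ran from −6.55 to −4.80 over the same 12 arrays. Summed myofibre levels, in the same order, were 2917, 3142, 2925 and 1534 (Angus), 2918, 2021, 1075 and 2020 (Hereford) and 2930, 2459, 1388 and 1074 (Wagyu x Angus). Summed adipocyte levels were 403, 449, 341 and 588, then 201, 440, 550 and 346, then 405, 506, 579 and 684. STRA6 thus tended to be higher where muscle was lower, and the part of muscle and fat content was not tested.

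In Omen the STRA6 range stood beside a wide range of MSLN. The 3 Angus arrays with a value had STRA6 at −6.15, −4.05 and 0.61, with MSLN at −5.33, −4.47 and 0.14. The Hereford arrays had STRA6 at −5.47, −4.33, −0.43 and 1.19, with MSLN at −5.75, −3.79, 0.18 and 0.56. The Wagyu x Angus arrays had STRA6 at −5.09, −3.37, 0.73 and 2.31, with MSLN at −4.86, −6.09, 0.09 and 0.72. The order was shared in Angus and Hereford, and the lowest pair changed places in Wagyu x Angus. The Omen values of STRA6 leave a gap between −3.37 and −0.43 in which no array lies, and MSLN leaves one between −3.79 and 0.09.

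**Figure D4:**
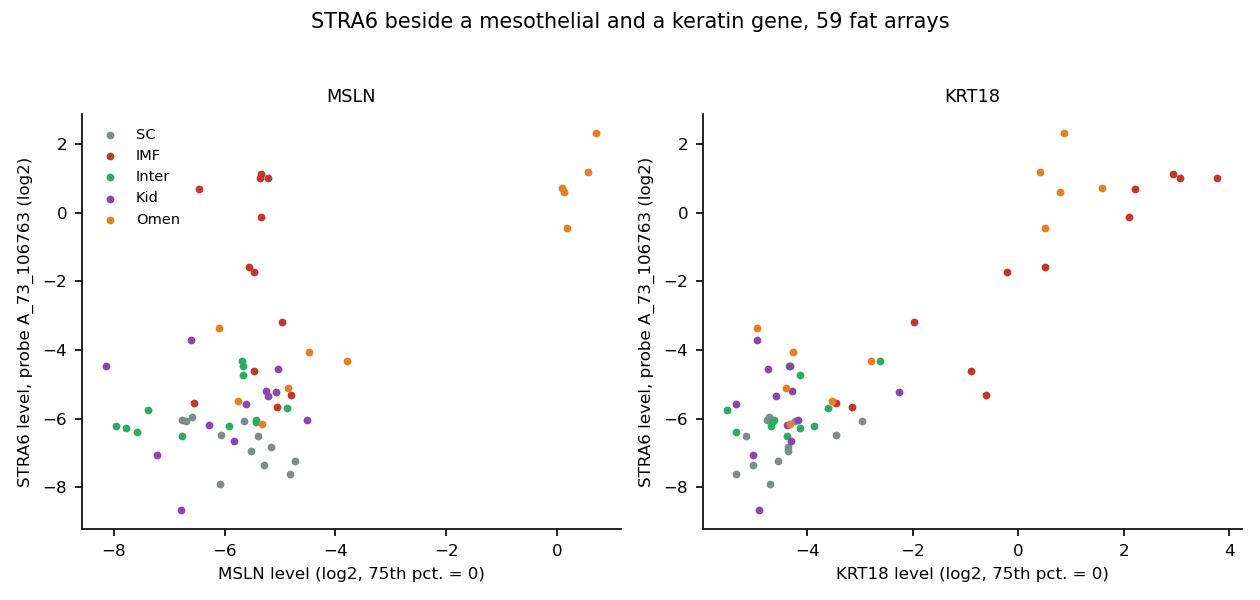
STRA6 by probe A_73_106763 (y axis, log2, 75th percentile of the array = 0) against MSLN and KRT18 (x axes, same scale) on the 59 fat arrays with a STRA6 value, coloured by depot. IMF arrays stay at MSLN values of −6.55 to −4.80, Omen arrays with STRA6 above 0 lie at MSLN values of 0.09 to 0.72, and both depots rise along KRT18.

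Of 7 Schwann cell markers 6 rose in IMF, among them PMP2 by 6.30 ± 0.99, MBP by 4.67 ± 0.55, SOX10 by 2.75 ± 0.47 and CDH19 by 2.57 ± 0.44. S100B, which adipocytes also express, fell by 1.74 ± 0.26. As few as 3 of the 7 stood above background on an SC array, so the sizes of the rises are not settled. The summed Schwann cell level ran from 6.55 to 119 in IMF (median 19.9) and from 27.2 to 60.1 in SC (34.2). In Omen none of the 7 rose past the threshold. Of 7 mesothelial markers 3 rose in Omen, MSLN by 3.02 ± 0.78, KRT18 by 2.52 ± 0.72 and CLDN15 by 1.22 ± 0.22, and KRT8 and KRT19 fell by 0.30 and 0.48. The summed mesothelial level ran from 36.8 to 80.2 in Omen and from 53.8 to 69.2 in SC. No mesothelial marker was below background on all arrays of a group. KRT18 rose in IMF too, by 4.84 ± 0.70, and it was, after the junction gene CLDN1 (r = 0.93), the gene most like STRA6 by this probe (r = 0.89, 59 arrays). These correlations pool depots and take in IMF and Omen arrays that spread widely. The part of nerve and mesothelial cells in the STRA6 differences was not tested.

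CYP26B1, which clears retinoic acid, also has probes that disagree. The representative probe, A_73_100072, is matched by accession and has a low signal. It ran from −7.79 to −4.45 in SC and from −7.18 to −4.20 in IMF, with 9 and 10 of 12 arrays well above background against 11 in Inter and 12 in Kid and in Omen, and its differences from SC were 0.49 ± 0.32 for Omen, 0.35 ± 0.29 for Kid, 0.23 ± 0.38 for IMF and 0.11 ± 0.35 for Inter. None passed. Under the normexp correction all 4 turned negative and passed, at −0.56, −0.60, −0.41 and −0.72, so the direction by this probe is not settled. The 2 genes most like it were GLRA2 (r = 0.71) and CHRM2 (r = 0.61).

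The probe that the study's tables call CYP26B1, A_73_120610, was well above background on all 96 arrays. SC ran from −0.29 to 1.84 (median 0.84) and IMF from −1.75 to 0.51 (−0.60), with 7 of 12 IMF arrays below the lowest SC array. It fell by 1.53 ± 0.27 in IMF (adjusted p = 2.28e-05), by 0.93 ± 0.21 in Kid (0.00105) and by 0.59 ± 0.21 in Omen (0.0238), and it did not pass in Inter (−0.32 ± 0.18). Within Hereford alone the Omen difference was 0.16 and did not pass. LD on pasture ran from −2.09 to −0.18 (median −1.26), 2.12 ± 0.18 below SC. Its name rests on those tables alone.

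The depots other than SC were also compared with each other. For IMF, 5 of 7 members were past the threshold against Inter (62.7% of probes), 3 against Kid (55.8%) and 5 against Omen (56.2%). By limma 0 passed for Kid minus Inter (15.4%) or Omen minus Inter (13.6%), with 0 and 2 at an unadjusted p of 0.05, and 1 passed for Omen minus Kid (12.1%), which was STRA6 by the representative probe at −0.77 ± 0.20. Other probes of the members gave more calls and, for STRA6, the opposite sign. By A_73_106763 STRA6 was 3.53 ± 0.92 higher in Omen than in Kid (2.24 under normexp) and 3.54 ± 0.87 higher than in Inter (2.39). The second RBP4 probe was lower than in Inter by 0.72 ± 0.24 in Kid and by 0.69 ± 0.19 in Omen, and CYP26B1 by A_73_120610 was lower by 0.61 ± 0.16 in Kid than in Inter, all past the threshold. ALDH1A1 and RDH10 were lower in IMF than in each of the 3 others, and DHRS3 was higher.

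All 7 members passed for LD on pasture minus SC, where 82.9% of probes did. RBP4, CRABP2, ALDH1A1, DHRS3 and RDH10 were lower in muscle, by 5.62 to 0.37, and STRA6 (1.18 ± 0.11) and CYP26B1 by A_73_100072 (0.71 ± 0.29) were higher, the latter against the −2.12 of its other probe. Under normexp CYP26B1 (0.24, adjusted p = 0.133) and RDH10 (−0.20, 0.0717) did not pass. For IMF minus LD on pasture, with 75.3% of probes past the threshold, 5 members passed. RBP4 stood 4.41 ± 0.32 above LD, CRABP2 1.28 ± 0.20 (0.63 under normexp), DHRS3 0.61 ± 0.12 and ALDH1A1 0.39 ± 0.17, and STRA6 by the representative probe 0.65 ± 0.16 below. A further ALDH1A1 probe did not pass (0.25 ± 0.16, adjusted p = 0.144 by limma). By each ALDH1A1 probe no IMF array lay outside the LD range. RDH10 (0.22 ± 0.12) and CYP26B1 (−0.48 ± 0.29) did not pass, while the other CYP26B1 probe passed with the opposite sign (0.59 ± 0.20, adjusted p = 0.00985). CYP26B1 by A_73_100072 did pass under quantile normalization (−0.94), under normexp (−0.66) and with scan day in the fit (−0.83). Within Angus it passed at −1.155 and within Hereford at 0.773.

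The wider retinoid pathway was counted over lists that hold the members too. In IMF, where 64.2% of all probes passed, 7 of 10 genes of uptake, binding and storage passed, 5 lower and 2 higher, with a median of −0.73. Of 8 genes of retinol oxidation and retinal reduction 4 passed, 3 of them higher, and of 3 genes of retinoic acid breakdown 2, both higher. Of 2 measured genes of retinoic acid synthesis ALDH1A1 was lower and the other, ALDH8A1, higher (0.62 ± 0.16), and the 1 measured gene of carotenoid cleavage was lower. Of 4 receptors 2 were higher and 1 lower, and of 10 retinoic acid responsive genes 3 were higher and 4 lower. The genes with the largest rises and the largest fall in IMF beside CRABP2 were TGM2, a transglutaminase induced by retinoic acid (2.26 ± 0.25), the retinol dehydrogenase RDH16 (1.82 ± 0.25, but 0.12 with adjusted p = 0.446 under normexp and 0.29 with 0.71 with scan day in the fit) and the fatty acid and retinoic acid carrier FABP5 (−1.74 ± 0.16). In LD on pasture these genes differed from SC by 1.04 ± 0.13, 1.16 ± 0.45 and −2.45 ± 0.15.

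TGM2 was higher than SC in all 4 depots, by 1.28 ± 0.23 in Inter, 2.23 ± 0.22 in Kid and 2.08 ± 0.17 in Omen, and past the threshold each time. CYP26A1, the companion of CYP26B1 in clearing retinoic acid, rose by 0.82 ± 0.29 in Omen, where the sign turned under the normexp correction (−0.59) and 0.03 was left with scan day in the fit. RARRES1, another gene that responds to retinoids, rose by 1.53 ± 0.21 in Inter and 1.60 ± 0.42 in Kid and fell by 0.91 ± 0.21 in IMF. SCARB1, a receptor that takes up carotenoids with lipoproteins, fell by 0.60 ± 0.09 in Inter. Of the 10 uptake genes 3 passed in Inter, 4 in Kid and 5 in Omen, and of the 10 responsive genes 4, 4 and 7, where 48.8%, 41.7% and 45.7% of all probes passed.

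Diet was compared in LD alone, with breed in the fit. Of 7 members 2 passed for supplement minus pasture, where 11.2% of probes did, and both were lower with supplement. Of 9 adipocyte markers 5 passed, all lower with supplement (median difference −0.72), and of 7 endothelial markers 5 passed, all higher, and their part in the member differences was not tested. RBP4 ran from −1.40 to −0.21 (median −0.93) with supplement against −1.40 to 1.55 on pasture, a difference of −0.76 ± 0.24 (adjusted p = 0.0402). CYP26B1 by A_73_100072 ran from −6.56 to −4.77 (median −6.02), with 6 of 12 arrays well above background, against −6.71 to −3.00 (median −5.15) on pasture with 18 of 24, a difference of −0.79 ± 0.24 (adjusted p = 0.0285). For both genes the range with supplement lay wholly inside the range on pasture.

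Both calls were lost under several alternatives. With the slide as a random block the adjusted p was 0.594 for RBP4 and 0.69 for CYP26B1, and with scan day in the fit 0.373 and 0.116. Under normexp RBP4 differed by −0.68 (0.065) and CYP26B1 by −0.07 (0.779). Without 1 of 14 of the 36 arrays the RBP4 call was lost (adjusted p up to 0.0832), and without 1 of 3 supplement arrays the CYP26B1 call (up to 0.0581). Within the first scan day the RBP4 difference was 0.23. The second RBP4 probe gave −0.24 ± 0.24 and the second CYP26B1 probe −0.05 ± 0.16. STRA6 (0.05 ± 0.10), CRABP2 (0.36 ± 0.21), ALDH1A1 (−0.38 ± 0.15, adjusted p = 0.101), DHRS3 (0.22 ± 0.12) and RDH10 (0.19 ± 0.10) did not pass.

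RBP4 in LD was examined by breed as well. On pasture RBP4 stood at 0.80 ± 0.58 (SD, 8 arrays) on Angus arrays, at −0.92 ± 0.38 on Hereford and at −0.15 ± 0.995 on Wagyu x Angus arrays. With supplement it stood at −0.83 ± 0.53, −0.80 ± 0.37 and −0.91 ± 0.46 on 4 arrays each. Angus on pasture thus stood above the other 5 combinations of breed and diet, which spanned −0.92 to −0.15. The dependence of the diet difference on breed had adjusted p = 0.0547 for this probe and 0.0179 for the second probe, where Angus went from −3.06 to −4.37 and Hereford from −4.36 to −3.71. By limma no representative probe passed that test, which 16.2% of all probes did, and 2 of 7 had an unadjusted p under 0.05. The supplement arrays of each breed filled a slide of their own, and slide was not in this fit. A breed dependence of the diet difference and a slide difference cannot be told apart here.

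Adipocyte markers in LD were highest in Angus and then Wagyu x Angus on pasture, as RBP4 was. Their summed level had a median of 106 on pasture for Angus, 54.9 for Hereford and 88.3 for Wagyu x Angus, and of 50.5, 47.2 and 53.3 with supplement. Marbling fat is part of these samples, and its part in the RBP4 differences was not tested.

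**Figure D5:**
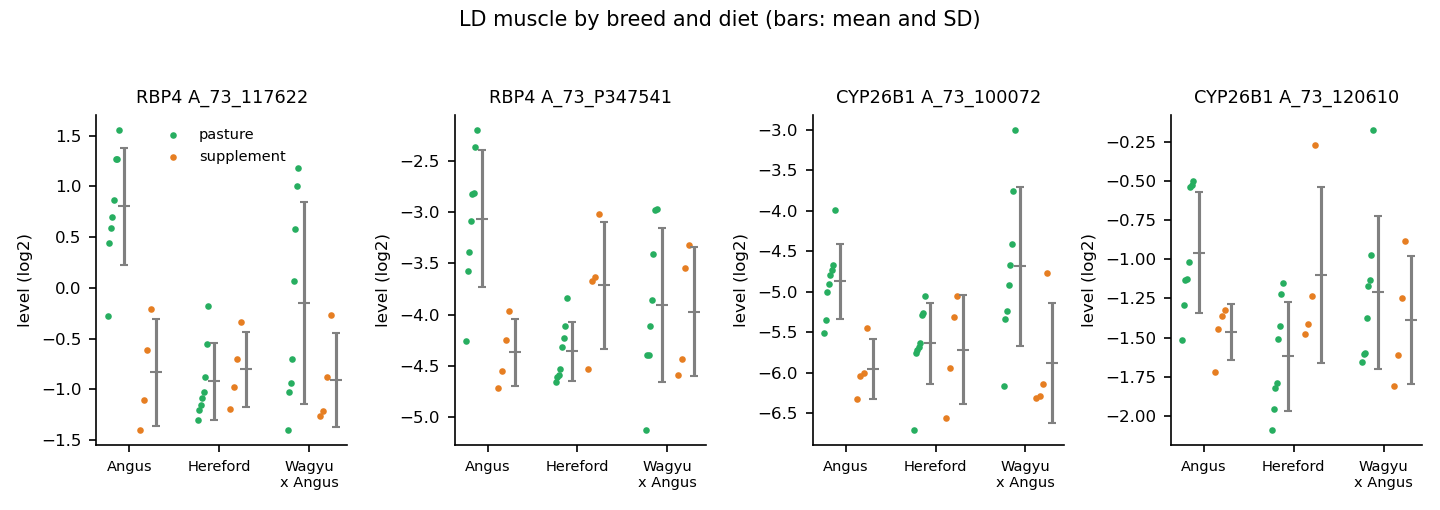
RBP4 and CYP26B1 in LD by each of 2 probes (y axis, log2, 75th percentile of the array = 0), by breed (x axis) and diet (colour), with the mean and SD of each combination. RBP4 is high in Angus on pasture, at a mean of 0.80 by the first probe, and the CYP26B1 probes differ in whether supplement is lower.

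Over the 60 fat arrays no member passed the F test for breed, where 3.2% of probes did, and the adjusted p of the 7 lay at 0.284 or above, with 1 of 7 under 0.05 unadjusted. None passed for a dependence of the depot differences on breed, a test that no probe passed after adjustment (0%) and 2512 probes, none of them a representative probe of a member, passed at an unadjusted p of 0.05. In LD 2 of 7 members passed, RBP4 (adjusted p = 0.0131) and ALDH1A1 (0.0211), against 25.3% of probes. RBP4 was 1.14 ± 0.28 lower in Hereford than in Angus (adjusted p = 0.0105, a contrast that 10.2% of probes passed), and by the second RBP4 probe 0.64 ± 0.28 lower, which did not pass (0.126). Wagyu x Angus minus Angus was −0.66 ± 0.28 and did not pass, where 19.2% of probes did.

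ALDH1A1 in LD was higher in Wagyu x Angus than in Hereford, with Angus between them. On pasture it ran from 2.91 to 4.49 in Wagyu x Angus (median 4.06), from 3.04 to 4.85 in Angus (3.82) and from 2.95 to 3.65 in Hereford (3.45). With supplement the means were 3.83 ± 0.32, 3.20 ± 0.47 and 3.02 ± 0.47 in the same order. Wagyu x Angus exceeded Hereford by 0.65 ± 0.18 (adjusted p = 0.0224, where 7.08% of probes passed), and the 2 other ALDH1A1 probes gave 0.61 ± 0.17 and 0.63 ± 0.18, both past the threshold. Wagyu x Angus minus Angus was 0.29 ± 0.18 and did not pass (adjusted p = 0.236), while 1 of the 2 other probes gave 0.59 ± 0.18 (0.023). With the slide as a random block, or with scan day in the fit, neither RBP4 nor ALDH1A1 passed the F test for breed in LD.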

How the data were processed

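RNA from 96 dissected samples was hybridised to single-colour Agilent bovine arrays. The authors deposited scanner files with processed spot intensities from Feature Extraction 10.7.3.1, and a log2 table of 34227 probes. Each of the 3285792 entries the authors deposited in that log2 table matched, within 0.001, the median signal of the spot after subtraction of its background. The processed intensity was taken as log2 minus the 75th percentile of the array. Control spots and 9361 outlier spots were left out, no spot was saturated, and no 2 arrays were identical. Depth has no meaning for arrays, and their number limits the precision.

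Probes were named by accession through the RefSeq gene table or by the study's probe tables, which gave 21445 of the 34227 probes (62.7%) a gene. Among tested probes, the accession-mapped one with the highest mean level represents a gene, or a table-mapped one where no tested probe was mapped by accession, as for CRABP2, and each other probe of a member is given too. All 8 members are named. Of the pathway lists, the genes with the 2 largest rises and the 2 largest falls past the threshold are named for each comparison with SC and for diet. The results of some pathway and marker genes are not reported here. The members and lists were chosen with earlier results of these data known. No sequence or genome was used here, so none is printed and no coordinates are given.

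Groups came from the labels. Differences were tested with limma 3.58.1 (lmFit, eBayes) in R 4.3.3, with Benjamini-Hochberg adjustment over the 34227 probes and a threshold of 0.05. Depot pairs were fitted on their own arrays, diet with breed, and breed with depot or diet. Tables were made with Python 3.11.15, numpy 2.4.6 and pandas 2.3.3. A fold against a group below background is a bound, taken against the lowest signal well above background on each array. The code was tested on simulated data, where 85% of probes with a log2 change of 1 were recovered for IMF minus SC, 84% for diet and 48% for 4 arrays against 4 within Angus.

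Alternatives were quantile normalization, normexp with an offset of 50 on the median spot signal, the deposited table, mean centring, other probe sets, the mean over probes, the slide as a random block, a spread shared over all 96 arrays, scan day, breed, the replicate number as a block, the t-test of the methods and leaving out each array. The use of the other STRA6 and CYP26B1 probes, the fits within 1 scan day and the fit without the 2 Inter arrays highest in the muscle gene CKM were added after the data were seen.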

Additional observations from a re-analysis of the deposited data

Results flagged for a closer look

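Within breed and tissue, 7 of 147 groups of 4 to 8 arrays held 1 array far from the others, and chance gives about 1 in 20. STRA6 by its representative probe was −1.293 on 1 Hereford IMF array and −1.678 on 1 Wagyu x Angus LD array with supplement. ALDH1A1 was 2.506 on 1 Angus LD array with supplement. DHRS3 was 1.387 and RDH10 −2.23 on single Angus SC arrays. CYP26B1 by A_73_100072 was −6.708 on 1 Hereford LD array on pasture and −4.77 on 1 Wagyu x Angus LD array with supplement.

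The test for a breed dependence of the RBP4 diet difference passed by its second probe (F = 8.001, limma adjusted p = 0.0179), where the first probe gave adjusted p = 0.0547. The supplement arrays of each breed shared a slide, so breed dependence and slide cannot be told apart. A STRA6 probe outside the tested set, A_73_P277371, was at least 2.54-fold higher in IMF and at least 1.93-fold higher in Omen than in SC.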

How the results depend on the processing

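Of the single-gene differences that passed, 854 values under the alternatives kept their direction and their side of the threshold, 158 kept the direction and lost the call, and 9 turned. The number of members past the threshold stayed within 1.5 times the reported one in 166 cases, was lower in 32 and higher in 8. The cause of a change was not tested. The fits within a breed or a scan day also hold fewer arrays. Signal near background limits the precision of STRA6 by A_73_106763 and of CYP26B1 by A_73_100072. Without the 2 Inter arrays highest in CKM, 6 single-gene values for Inter minus SC kept their call and 1 lost it.

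Within Angus the number of members past the threshold was 1 for Inter minus SC, 1 for Omen minus SC and 3 for IMF minus LD. Within Hereford it was 2 for IMF minus SC, 1 for Inter minus SC, 0 for Kid minus SC and 0 for Omen minus SC. Within Wagyu x Angus it was 2 for IMF, 1 for Inter, 1 for Kid and 2 for Omen, each minus SC. Quantile normalization left 1 for Inter minus SC, 3 for IMF minus Inter and 1 for Omen minus Inter. Scan day in the fit left 1 for Inter minus SC, 3 for Omen minus SC, 2 for Kid minus Inter, 1 for Omen minus Inter and 2 for Omen minus Kid, and 0 for diet and for breed in LD. The slide as a random block left 3 for Omen minus SC and 0 for diet and for breed in LD. By the other STRA6 and CYP26B1 probes, chosen after seeing the data, the number was 5 for Kid minus SC and 1 for diet.

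For diet, where 2 members passed, the number was 0 under normexp, the mean over probes and the adjusted t-test of the methods, and 0 within Hereford and within Wagyu x Angus. It was 1 with the deposited table, 1 without a breed term, and 1 within either scan day, a split added after seeing the data, where the member was RBP4 within the second day and RDH10 (0.437), which had not passed, within the first. The t-test of the methods gave 3 members for diet at an unadjusted p of 0.05. For the dependence of diet on breed the number was 1 with the deposited table and 1 with the mean over probes, and for breed in LD it was 1 on the 24 pasture arrays. Leaving out 1 array at a time gave 0 to 3 members for diet, 4 to 4 for IMF, 2 to 3 for Inter, 3 to 4 for Kid and 5 to 6 for Omen, each minus SC.

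The passing values that turned were STRA6 by A_73_106763 under normexp (−0.562 in Inter and −0.41 in Kid), CYP26A1 in Omen under normexp (−0.594), STRA6 by A_73_P400776 with the mean over probes (2.722 for Omen minus SC and 1.981 for IMF minus LD), CYP26B1 by A_73_100072 for LD minus SC with the mean over probes (−0.703), CYP26B1 by A_73_120610 for Omen minus SC within Hereford (0.157), and RBP4 for diet within Hereford (0.12) and within the first scan day (0.232). CYP26B1 by A_73_100072, whose differences from SC did not pass, also turned under normexp, and for IMF minus LD on pasture within Hereford (0.773 against −0.481).

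The replicate number as a block moved 1 count by over 1.5 times, that of Omen minus Inter, which became 1. Arrays with the same number deviated together with correlations of −0.307 to 0.318, so the numbers were not taken to pair samples.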
